A study of Mus musculus with 14 samples.

Results

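The 8 genes described here encode inward rectifier potassium channel subunits (Kcnj2, Kcnj8, Kcnj10, Kcnj13, Kcnj14 and Kcnj16), the sulfonylurea receptor Abcc9 and the water channel aquaporin-4 (Aqp4). They were chosen by name for their place in glia and mural cells, with earlier results of these data known. They are 8 of the 28316 genes in the retina table and 8 of the 26528 genes in the brain table. Inward rectifiers let potassium into a cell more readily than out of it and hold the resting potential close to the potassium equilibrium. Kcnj10 pairs with Kcnj16 in the glial channel that takes up potassium released by neurons, and Aqp4 carries water across the glial endfeet that wrap vessels. Kcnj8 forms the pore and Abcc9 the regulatory receptor of the ATP-sensitive channel of pericytes and smooth muscle, Kcnj2 encodes a strong rectifier of endothelium, muscle and neurons, and Kcnj13 is a channel of choroid plexus and retinal pigment epithelium.

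The study removed the TGF-beta receptor gene Tgfbr1 from endothelial cells (ECs) of mice and counted RNA molecules, as unique molecular identifiers (UMIs), in single nuclei at postnatal day 14. CKO animals carried Cdh5CreER, a tamoxifen-activated Cre expressed in endothelium, with 1 conditional and 1 null Tgfbr1 allele, and were given 4-hydroxytamoxifen between postnatal days 3 and 5. Whole retinas gave 1 control library, named wild type, and 11 CKO libraries. Fragments of brain vessels enriched on Ficoll gave 1 control and 1 CKO library, and each of these pooled the fragments of a pair of brains. The labels do not say whether the controls received 4-hydroxytamoxifen. The null allele was present in every cell of the CKO animals, so CKO cell types outside the endothelium also had 1 intact copy of Tgfbr1 at most.

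The retina control held 11513 nuclei and 30989702 UMIs, and the CKO retina libraries ran from 104 to 18862 nuclei (median 4210) and from 90449 to 55803724 UMIs. CKO library 4 was the smallest and stood apart, with 2 Müller glia nuclei, so it entered only the fits of ganglion cells and immune cells. The control and CKO libraries 1 to 3 formed batch 1 of the deposited cell table, CKO libraries 4 and 5 batch 2, and CKO libraries 6 to 11 batch 3. CKO libraries 8 to 11 were made with a later kit, v5.0 in place of v4.0 PLUS. Among 77676 retina nuclei, 10 barcodes were shared by libraries, and among 31324 brain nuclei 2 were shared. The brain control held 16649 nuclei and 49798325 UMIs, the brain CKO 14675 nuclei and 31033373 UMIs.

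Tgfbr1 itself was counted over the whole gene, and the retina has no EC label, so its level checks the genotype only weakly. Over all retina nuclei Tgfbr1 was at 89.0 CPM, the usual scaling of a gene's share of all UMIs, in the control and between 71.4 and 87.0 CPM in the CKO libraries other than CKO 4, where 33 UMIs gave 365 CPM. In Müller glia its log2 difference, CKO over control, was -0.39 (SE 0.23; edgeR, adjusted p = 0.914). In brain nuclei labelled ECs, the cells that express Cre, Tgfbr1 was at 69.1 CPM in the control and 62.9 CPM in the CKO, a ratio of 0.910 (95% interval 0.792 to 1.05). Brain intervals here are exact conditional binomial intervals for counting error only, because each brain genotype had 1 library.

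The labels were checked against marker genes. Retinal Müller glia held their marker list at 3705 CPM in the control, with 8 of 8 genes detected and Slc1a3 highest. Rods held the rod list at 16399.5 CPM, led by Sag. Retinal astrocytes, with 12 control nuclei, carried the astrocyte list at 3869 CPM, led by Pax2, beside the Müller glia list at 3357 CPM. In the brain, astrocytes held the astrocyte list at 17275 CPM in the control and 18162 CPM in the CKO, led by Slc1a2, with Pax2 at 0. Nuclei labelled glia carried the fibroblast list highest, at 13601 and 13097 CPM and led by Ptgds, with the astrocyte list at 2580 and 2967 CPM, so they are called here by their label alone. CP_8 nuclei held the choroid plexus list at 43597 and 42313 CPM, most of it Ttr. CP_6 nuclei held the ependymal list highest, at 7724 and 7819 CPM and led by Cfap299. Nuclei labelled vSMCs, for vascular smooth muscle cells, held the smooth muscle list at 5194 and 4695 CPM, led by Acta2, below the pericyte list at 6553 and 6363 CPM. Nuclei labelled ECs carried the endothelial list at 12730 and 9821 CPM, led by Flt1, and also the pericyte list at 7501 and 6440 CPM, led by Rgs5. The 201 control nuclei labelled pericytes held the pericyte list at 16989 CPM, and the 22 CKO nuclei held it at 7164 CPM with Higd1b and Ndufa4l2 at 0.

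In the GENCODE annotation of GRCm39, Kcnj8 (chr6:142510563-142517830, minus strand) and Abcc9 (chr6:142533588-142648571, minus strand) are neighbours 15757 bases apart. Kcnj16 (chr11:110858843-110927617, plus strand) and Kcnj2 (chr11:110956981-110967665, plus strand) lie 29363 bases apart, and 0 protein-coding genes lie between the genes of either pair. Kcnj10 is at chr1:172168765-172201652 (plus strand), Kcnj13 at chr1:87309135-87322456 (minus strand), Kcnj14 at chr7:45465884-45474208 (minus strand) and Aqp4 at chr18:15522451-15544039 (minus strand). Exons of Kcnj13 overlap those of Gigyf2 on the opposite strand, and exons of Abcc9 overlap those of 5330439B14Rik. Exons of Kcnj2 and of Kcnj10 overlap those of Gm57334 and Gm57153 on the opposite strand, and both of these genes are absent from the count tables. Whether counting was stranded is not stated in the sources, so the part of such transcripts in the counts of these 4 members was not tested.

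Müller glia, the radial glia that span the retina, were the main retinal site of Kcnj10 and Aqp4, and neither gene differed between CKO and control beyond the spread of the CKO libraries. Kcnj10 was at 68.2 CPM in the control (95% Poisson interval 55.6 to 82.7, 402 nuclei) and ran from 50.9 to 85.5 CPM in 10 CKO libraries, with a median of 59.0 CPM. CKO libraries 7 and 10 lay above the control and the other 8 below, so the control fell within the CKO range. The CKO mean was 62.6 CPM (SD 12), and the log2 difference was -0.19 (SE 0.29; edgeR, adjusted p = 0.986). Within batch 1, all 3 CKO libraries were below the control, at a mean of 56.5 CPM (SD 5.13). Far below Müller glia came astrocytes and horizontal cells, with CKO means of 7.11 CPM (SD 7.79) and 5.18 CPM (SD 4.21) that did not differ beyond their spread.

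Aqp4 in Müller glia was at 104 CPM in the control (88.3 to 121) and ran from 73.0 to 164.0 CPM in the CKO libraries, with a median of 100.5 CPM. The control again lay inside the CKO range, with 4 CKO libraries above it and 6 below, but the 4 were those of kit v5.0 and the 6 those of v4.0 PLUS, the kit of the control. The CKO mean was 108 CPM (SD 25.6), and the log2 difference with the kit in the model was -0.20 (SE 0.23; edgeR, adjusted p = 0.966). The sign of the fitted difference and that of the plain means were opposite. The 3 CKO libraries of batch 1 were below the control, with a mean of 88.8 CPM (SD 13.7).

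So the Aqp4 levels of the CKO libraries separated by kit. The 4 CKO libraries made with kit v5.0 held Aqp4 at 112 to 164.0 CPM, and the 6 made with v4.0 PLUS at 73.0 to 103 CPM, with no overlap. In the same fit the kit difference of Aqp4 was 0.37 on the log2 scale (edgeR, p = 0.0177, adjusted p = 0.191). For Kcnj10 the kits overlapped, at 53.9 to 80.8 CPM for v5.0 and 50.9 to 85.5 CPM for v4.0 PLUS. Kcnj14, an inward rectifier found mainly in neurons, also separated by kit in Müller glia, at 17.5 to 19.2 CPM for v5.0 and 6.15 to 17.2 CPM for v4.0 PLUS, with a log2 kit difference of 0.70 (edgeR, p = 0.0299, adjusted p = 0.232). EdgeR called 0 of the 3 members for kit, against 1.63% of all genes in these nuclei, and 2 of the 3 had an unadjusted p under 0.05; DESeq2 was not run for the kit. Batch 3 held CKO libraries of both kits, and within it Aqp4 was at 92.3 and 103 CPM in the v4.0 PLUS libraries 6 and 7, below all 4 of v5.0. Mean UMIs per Müller glia nucleus were also higher in all 4 v5.0 libraries than in the 6 of v4.0 PLUS. The lowest of v5.0 was CKO library 8, with 1373924 UMIs in 203 nuclei. The highest of v4.0 PLUS was CKO library 5, with 3106418 UMIs in 690 nuclei. Kit and depth cannot be told apart here for Aqp4 or Kcnj14, and the part of depth was not tested.

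**Figure D1:**
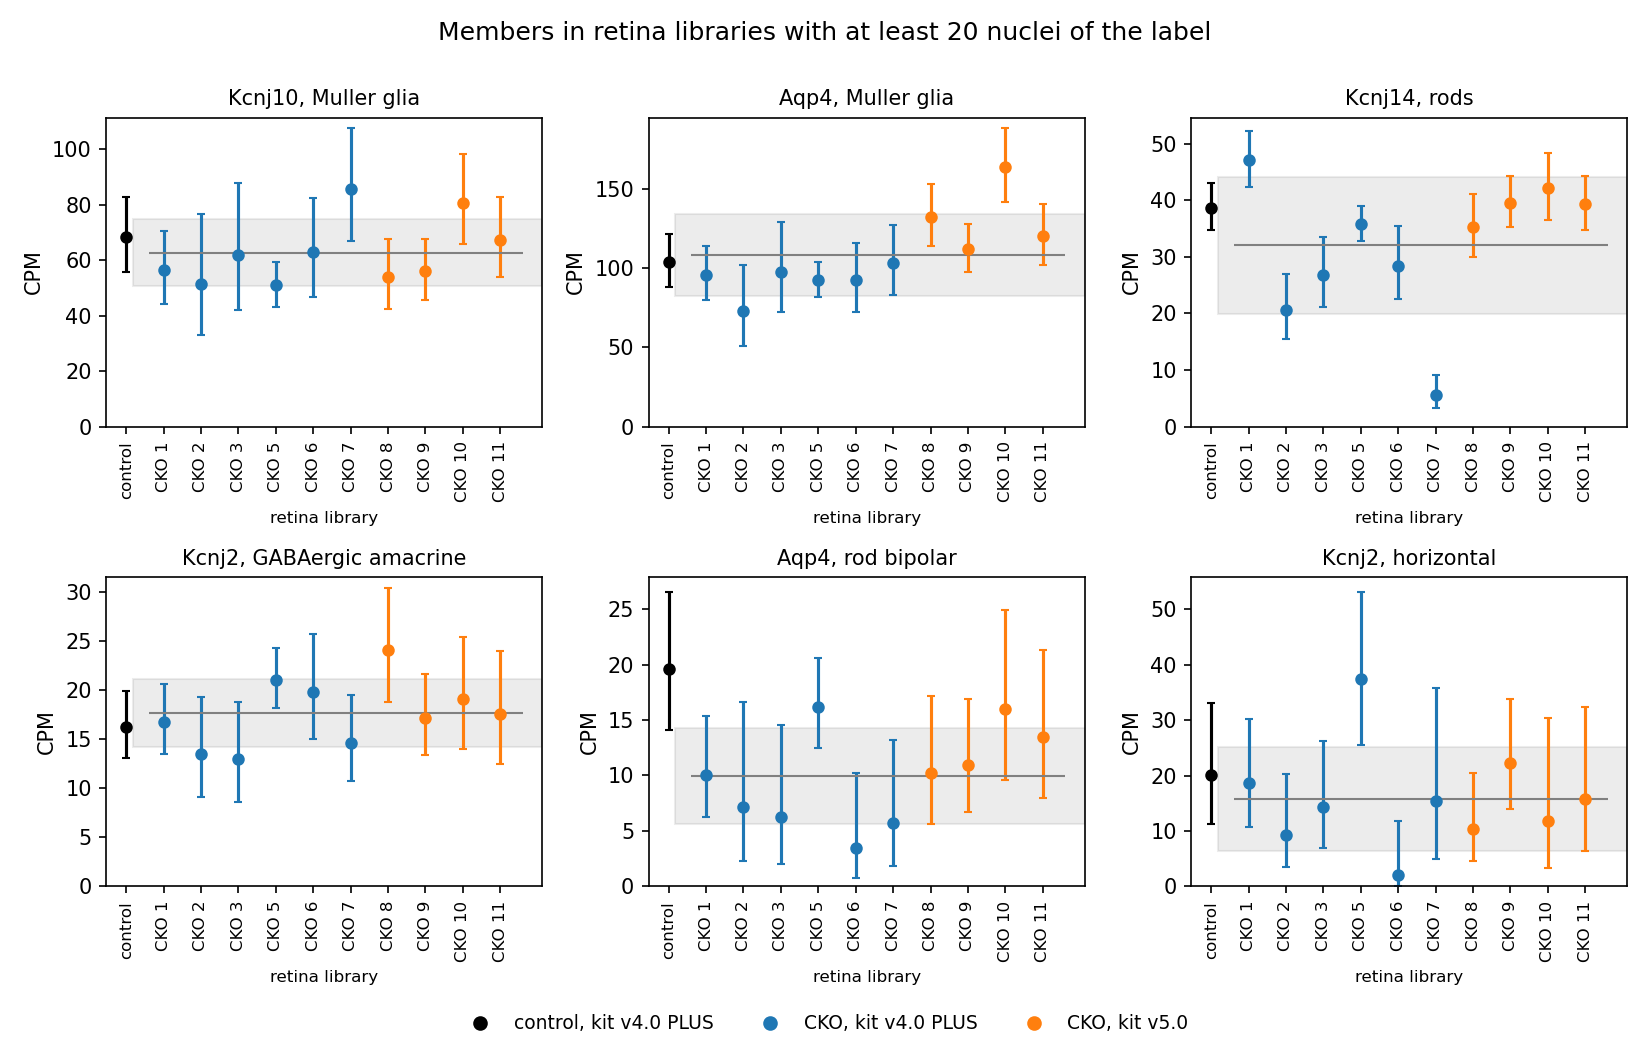
Level in CPM (y axis) of 4 members in each retina library (x axis) for 6 pairs of gene and cell type; bars are 95% Poisson intervals of each library, the grey line is the CKO mean and the band 1 SD. The control lies within the range of the CKO libraries except for Aqp4 in rod bipolar cells, where it lies above all 10.

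Of the 3 members tested in Müller glia (Kcnj10, Kcnj14 and Aqp4), edgeR called 0 at an adjusted p under 0.05, where 0.0156% of 12789 genes were called, and 0 of the 3 had an unadjusted p under 0.05. DESeq2 called 0 members and 94 genes in these nuclei. Kcnj14 was at 11.9 CPM in the control and 13.5 CPM (SD 5.14) in the CKO, and its log2 difference of -0.28 (SE 0.48; edgeR, adjusted p = 0.991) turned to 0.078 without the kit in the model. The other 5 members had fewer than 50 UMIs in Müller glia and were not tested.

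Retinal astrocytes, which guide and cover the superficial vessels, could not be fitted, because the control had 12 nuclei and 4 CKO libraries reached 20. The 12 control nuclei held 3 UMIs of Kcnj10, or 95.9 CPM (19.8 to 280.3), and 0 of Aqp4 (0 to 118 CPM). Pooled over 10 CKO libraries, 220 astrocyte nuclei held 7 UMIs of Kcnj10, or 7.05 CPM (2.84 to 14.5), and 11 of Aqp4, or 11.1 CPM (5.53 to 19.8). The Kcnj10 intervals of the control and of the pooled CKO libraries did not overlap, but the control rests on 3 UMIs. Abcc9 had 6 UMIs in the pooled CKO astrocytes and 0 in the control.

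Within single CKO retina libraries, Müller glia held more Kcnj10 and Aqp4 per UMI than astrocytes did. The sample titles and the paper do not say how many animals gave each retina library. In CKO libraries 1, 5, 6 and 8, Kcnj10 was at 56.3, 50.9, 62.8 and 53.9 CPM in Müller glia and at 6.66, 3.72, 18.1 and 0 CPM in astrocytes. Aqp4 in the same libraries was at 95.8, 92.4, 92.3 and 132.5 CPM in Müller glia and at 26.6, 11.2, 0 and 0 CPM in astrocytes. Both genes were higher in Müller glia in 4 of 4 libraries, and the levels did not overlap. The mean log2 differences were 3.47 for Kcnj10 (SD 1.70) and 4.59 for Aqp4 (SD 2.61), and the two-sided exact sign-flip permutation test gave p = 0.125 for each, the smallest that 4 libraries allow (0.5 after Benjamini-Hochberg adjustment over the 8 members). The mean differences are of log2 of CPM plus 1, and with 10 added in place of 1 they were 2.05 and 2.75, so their size depends on the added value where astrocytes hold 0. With the CKO libraries that had at least 5 nuclei of both types, an alternative chosen after seeing the data, 10 of 10 were higher for each gene, the mean log2 differences were 3.82 and 4.69, and the exact p was 0.00195, again the smallest possible (adjusted p = 0.00781). The control also had at least 5 nuclei of both types, and there Kcnj10 ran the other way, with astrocytes at 95.9 CPM on 3 UMIs and Müller glia at 68.2 CPM. With the control included, also chosen after seeing the data, 10 of 11 libraries were higher in Müller glia for Kcnj10 (mean log2 difference 3.43, SD 2.30; exact p = 0.00195, adjusted p = 0.00781) and 11 of 11 for Aqp4 (4.87, SD 2.29; exact p = 0.000977, adjusted p = 0.00781). The astrocytes carried the Müller glia list at 90.6% of its level in Müller glia in the control, and its part in these values was not tested.

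Rods had the highest Kcnj14 level of the retina in the control and by the CKO means, and other cell types followed without clear steps. Rods held 38.7 CPM in the control (34.7 to 43.1; 333 UMIs) and from 5.63 to 47.0 CPM in 10 CKO libraries, with a median of 35.5 CPM. CKO library 7 was far below the others, 4 libraries lay above the control and 6 below. The log2 difference was -0.42 (SE 0.61; edgeR, adjusted p = 1.00), and without CKO library 7 it was -0.22, at a CKO mean of 35.0 CPM (SD 8.31) in place of 32.0 CPM (SD 12.1). CKO library 7 had the lowest Kcnj14 in 6 of the 10 cell types it could be read in, so its low value was not limited to rods. By the CKO means the order after rods was immune cells, horizontal cells, Müller glia and cones, from 21.5 to 12.8 CPM, and each of these neighbours overlapped the next within 1 SD. Rods and immune cells also overlapped within 1 SD. In batch 1 the CKO mean of immune cells, 33.3 CPM, was above that of rods, 31.5 CPM.

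Rod transcripts were also counted outside rods, and the Kcnj14 levels of other types can be set beside them. In control cones Kcnj14 stood at 50.0% of its rod level beside 48.0% for the rod marker list, and in control Müller glia at 30.8% beside 26.4%. In control horizontal cells it stood at 13.8% beside 19.0%, on 4 UMIs. In the pooled CKO libraries the Kcnj14 level of horizontal cells was 51.9% of that of rods, beside 25.4% for the rod list, that of cones 39.4% beside 47.9%, and that of Müller glia 37.6% beside 25.7%. The part of rod RNA in the Kcnj14 counts of other types was not tested. Cones had 19.4 CPM in the control and 12.8 CPM (SD 8.67) in the CKO, with a log2 difference of -1.31 (SE 0.62; edgeR, p = 0.0526, adjusted p = 1), and 2 of 10 CKO libraries lay above the control. The kit difference of Kcnj14 in cones was 1.37 on the log2 scale (edgeR, p = 0.00485, adjusted p = 0.0696), and without the kit in the model the CKO difference was -0.60 (SE 0.82). Kcnj14 also had an unadjusted kit p under 0.05 in cone bipolar cells (0.0282), rod bipolar cells (0.0294) and ganglion cells (0.0311), with adjusted p of 0.146 or more. Over all genes edgeR called 459 of 10381 for kit in cones and 1127 of 15235 in cone bipolar cells. It called 499 of 12056 in rod bipolar cells and 123 of 13903 in ganglion cells.

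Kcnj2, which sets the resting potential in many excitable cells, was read mainly in GABAergic amacrine cells and horizontal cells. Amacrine cells held 16.2 CPM in the control (13.0 to 19.9) and from 13.0 to 24.1 CPM in the CKO libraries, with a median of 17.4 CPM. The control lay inside the CKO range, with 7 libraries above it and 3 below, and the log2 difference was 0.02 (SE 0.29; edgeR, adjusted p = 1.00). Horizontal cells held 20.0 CPM in the control (11.2 to 33.0) and from 2.12 to 37.5 CPM in the CKO libraries, a spread that spans the amacrine values. CKO library 5 was the highest and CKO library 6 the lowest, and the log2 difference was -0.30 (SE 0.80; edgeR, adjusted p = 1.00). Glycinergic amacrine cells had 0.283 CPM in the control and 0.309 CPM (SD 0.332) in the CKO, far below their GABAergic counterparts.

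Aqp4 outside glia was low, and in rod bipolar cells the control stood above every CKO library. The control had 19.6 CPM (14.1 to 26.6; 41 UMIs), and the CKO libraries ran from 3.49 to 16.2 CPM with a median of 10.1 CPM. All 10 CKO libraries were below the control, including the 3 of batch 1 (mean 7.79 CPM, SD 1.99), yet the log2 difference of -1.14 (SE 0.53; edgeR, p = 0.0476) did not pass the test, with an adjusted p of 1.00. The Müller glia list in these control nuclei was at 0.658% of its level in Müller glia, beside 18.9% for Aqp4. In CPM that list was at 24.4 in the control and from 5.66 to 140 in the CKO libraries, highest in those of kit v5.0. The part of Müller glia RNA in these Aqp4 counts was not tested. In ganglion cells Aqp4 was at 8.24 CPM in the control and 4.07 CPM (SD 2.43) in 11 CKO libraries, all below the control (log2 -1.20, SE 0.58; edgeR, p = 0.0559, adjusted p = 1.00). Horizontal cells held 13.4 CPM in the control and 13.7 CPM (SD 6.18) in the CKO, with no such separation. After Müller glia the order of Aqp4 by CKO means was horizontal cells, rod bipolar cells, astrocytes and GABAergic amacrine cells, and neighbours overlapped within 1 SD.

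Over the 9 other cell types that were fitted, 17 pairs of member and cell type could be tested. EdgeR called 0 of the 17, where 0.00436% of 114778 tests over all genes were called, and 1 had an unadjusted p under 0.05 (Aqp4 in rod bipolar cells). In rod bipolar cells 391 of 12056 genes had an unadjusted p under 0.05. DESeq2 called 0 members and 993 genes in the same cell types. Kcnj8, Kcnj13 and Kcnj16 had 18, 128 and 140 UMIs in all retina nuclei together. By CKO means Abcc9 was highest in horizontal cells, at 1.34 CPM (1 UMI) in the control and 7.64 CPM (SD 7.87) in the CKO, with a range from 0 to 27.0 CPM. In the control, ganglion cells (2.06 CPM, 5 UMIs) and GABAergic amacrine cells (1.44 CPM, 8 UMIs) were above them. In horizontal cells 9 of 10 CKO libraries were above the control, on 46 CKO UMIs, and Abcc9 had too few UMIs there to be tested. Kcnj8, Kcnj13 and Kcnj16 were near the limit of detection in these retinas, which have no labelled mural cells.

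Other genes of potassium and water handling in Müller glia gave no call either. Of 24 genes tested in the 7 lists, edgeR called 0 and DESeq2 called 0, and 2 had an unadjusted p under 0.05 by either tool. Over all genes in these nuclei, 778 of 12789 had an unadjusted p under 0.05 by edgeR. Among other inward rectifiers 2 of 9 could be tested, Kcnj3 (log2 -0.10, SE 0.67) and Kcnj6 (log2 2.53, SE 1.91, 52 UMIs). Of the other aquaporins 3 of 9 were tested, with a median log2 difference of 0.62, where the median of all tested genes was 0.02. Aqp9, which also carries glycerol, had the smallest p of the lists (log2 -1.70, SE 0.50; edgeR, p = 0.00363, adjusted p = 0.499), and Aqp1 had a log2 difference of 0.62 (SE 0.56). All 11 genes of the dystrophin complex, which anchors Kcnj10 and Aqp4 at endfeet, were tested, with a median of -0.0060, and its most abundant genes Dmd and Sntb1 were at -0.05 (SE 0.21) and 0.0039 (SE 0.17). The 6 sodium pump and cotransporter genes had a median of 0.25, with Atp1b2 at 0.31 (SE 0.30). These 6 include Slc4a4, a bicarbonate cotransporter chosen after values were seen, so the median draws on it. Slc4a4 was at 0.84 (SE 0.33; edgeR, p = 0.0235, adjusted p = 0.740). Kcnk1 was the 1 two-pore channel tested of 3 (log2 0.08, SE 0.27), with Kcnk2 not tested, and Lrrc8a the 1 volume-related channel of 2 (log2 -0.65, SE 1.04), with Trpv4 not tested. The sulfonylurea receptor Abcc8 was not tested.

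In the brain libraries each member had its own cell types, and the ratios below compare 1 CKO with 1 control library. Kcnj10, Kcnj16 and Aqp4 were highest in astrocytes and CP_6 nuclei, Kcnj8 and Abcc9 in pericytes, Kcnj13 in CP_8 nuclei and Kcnj2 in ECs and nuclei labelled glia. Kcnj14 had 47 UMIs in all, 14 in the ECs of each library. Of 168 pairs of member and cell type, 37 had at least 20 UMIs in both libraries together. Of these, 4 (10.8%) were at least 2-fold higher in the CKO and 8 (21.6%) at least 2-fold lower, where over all genes 5.96% were higher and 10.6% lower. With at least 50 UMIs, 2 of 22 pairs were higher (9.09%) and 3 lower (13.6%), where 3.11% of all genes were higher and 6.74% lower. The members were chosen with earlier results of these data known, so these shares only describe the set. The intervals of 3 of the 4 and of 6 of the 8 excluded 1, and the other 25 pairs lay within 2-fold.

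**Figure D2:**
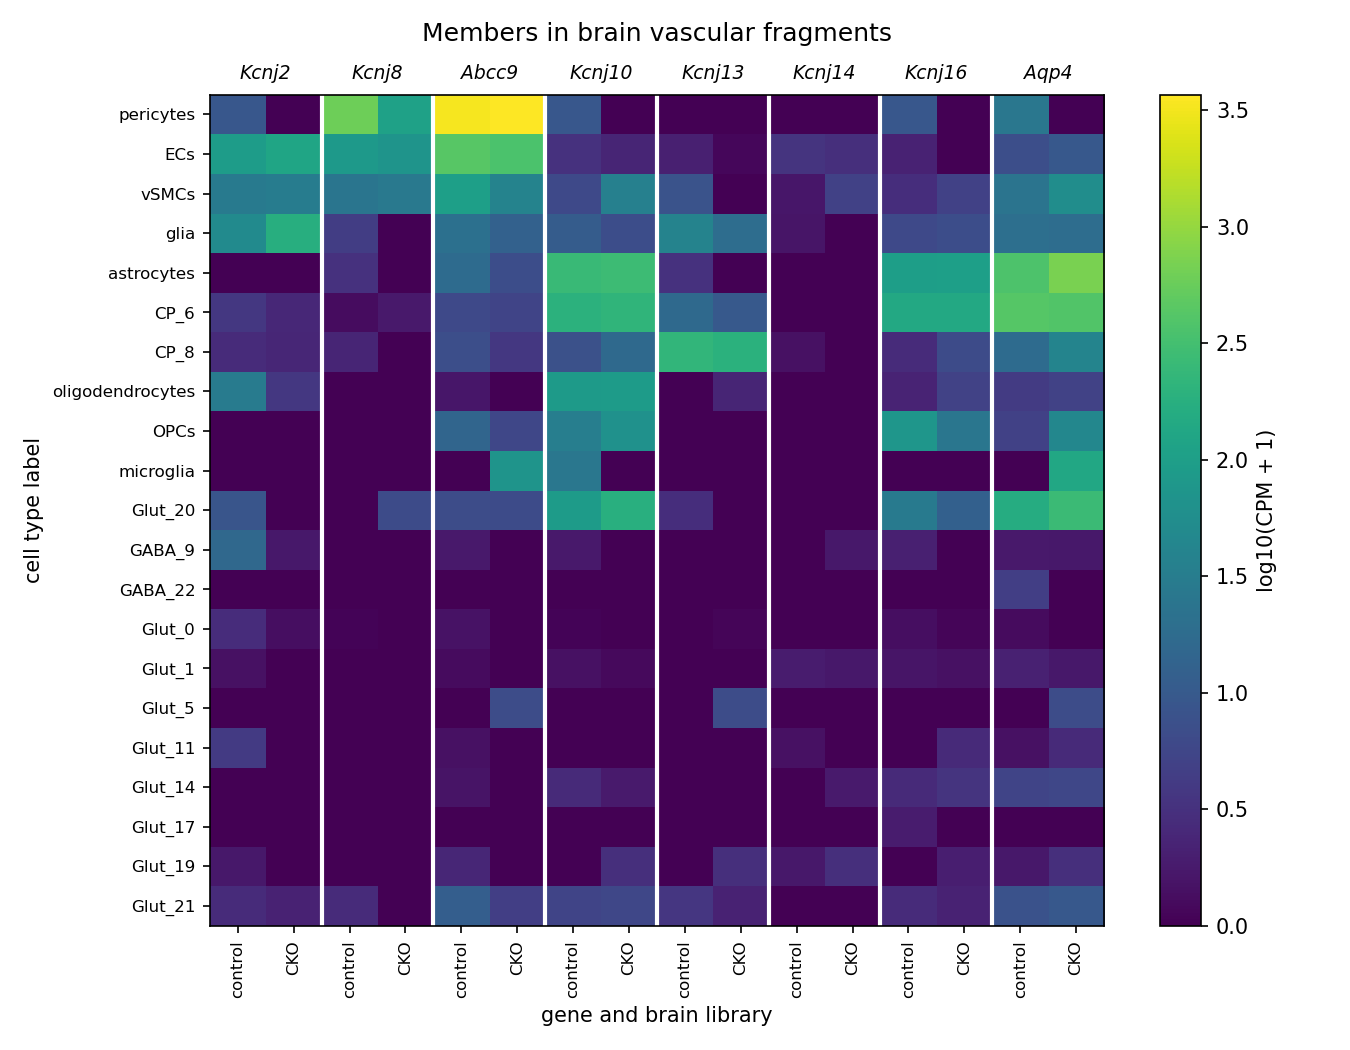
Level of each member, as log10 of CPM plus 1 (colour), in 21 brain cell type labels (y axis) and both brain libraries (x axis). Abcc9 and Kcnj8 are brightest in pericytes and ECs, Kcnj10, Kcnj16 and Aqp4 in astrocytes and CP_6, and Kcnj13 in CP_8.

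Brain astrocytes held Kcnj10 and Kcnj16 at nearly the same level in both libraries, while Aqp4 was higher in the CKO. Kcnj10 was at 263 CPM in the control (237 to 292) and 281 CPM in the CKO (237 to 331), a ratio of 1.07 (0.872 to 1.30). Kcnj16 was at 99.8 and 103 CPM, a ratio of 1.03 (0.734 to 1.43). The intervals of both genes include 1. Aqp4 was at 366 CPM in the control (335 to 399.8; 499 UMIs) and 704 CPM in the CKO (633 to 781; 356 UMIs), a ratio of 1.92 (1.67 to 2.21). Lists of other cell types were also higher in these CKO astrocytes, the ependymal list at 7.34 and 67.3 CPM (10 and 34 UMIs, led by Cfap299), the oligodendrocyte list at 120 and 318 CPM and the choroid plexus list at 204 and 409 CPM, led by Ttr. Their part in the Aqp4 ratio was not tested.

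Depth differed between these astrocytes, with a median of 1150.5 UMIs per nucleus in the control and 578.5 in the CKO, and Aqp4 per UMI differed with depth. In classes of UMIs per nucleus, chosen after seeing the data and not matched for depth within a class, Aqp4 was at 779 and 1096 CPM in nuclei under 500 UMIs (ratio 1.41, 0.835 to 2.52), and at 558 and 689.7 CPM in nuclei of 500 up to 1000 UMIs (1.24, 0.974 to 1.57). It was at 405 and 455 CPM in nuclei of 1000 up to 2000 UMIs (1.12, 0.811 to 1.53) and at 229 and 667 CPM in nuclei of at least 2000 UMIs (2.91, 2.10 to 3.99). So the CKO was higher in each class, by less than 1.92 in 3 of 4, and the fourth had 29 CKO nuclei. Kcnj10 in the same classes had ratios of 0.967 (0.706 to 1.32), 0.607 (0.350 to 0.995) and 0.879 (0.496 to 1.47) from 500 UMIs upward, so its direction turned. Kcnj16 had 0.963 (0.566 to 1.63), 0.280 (0.0741 to 0.750) and 1.16 (0.396 to 2.79). Under 500 UMIs the ratios were 1.81 (0.635 to 7.07) for Kcnj10 and 3.24 (0.487 to 138) for Kcnj16, the latter on 1 and 13 UMIs.

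**Figure D3:**
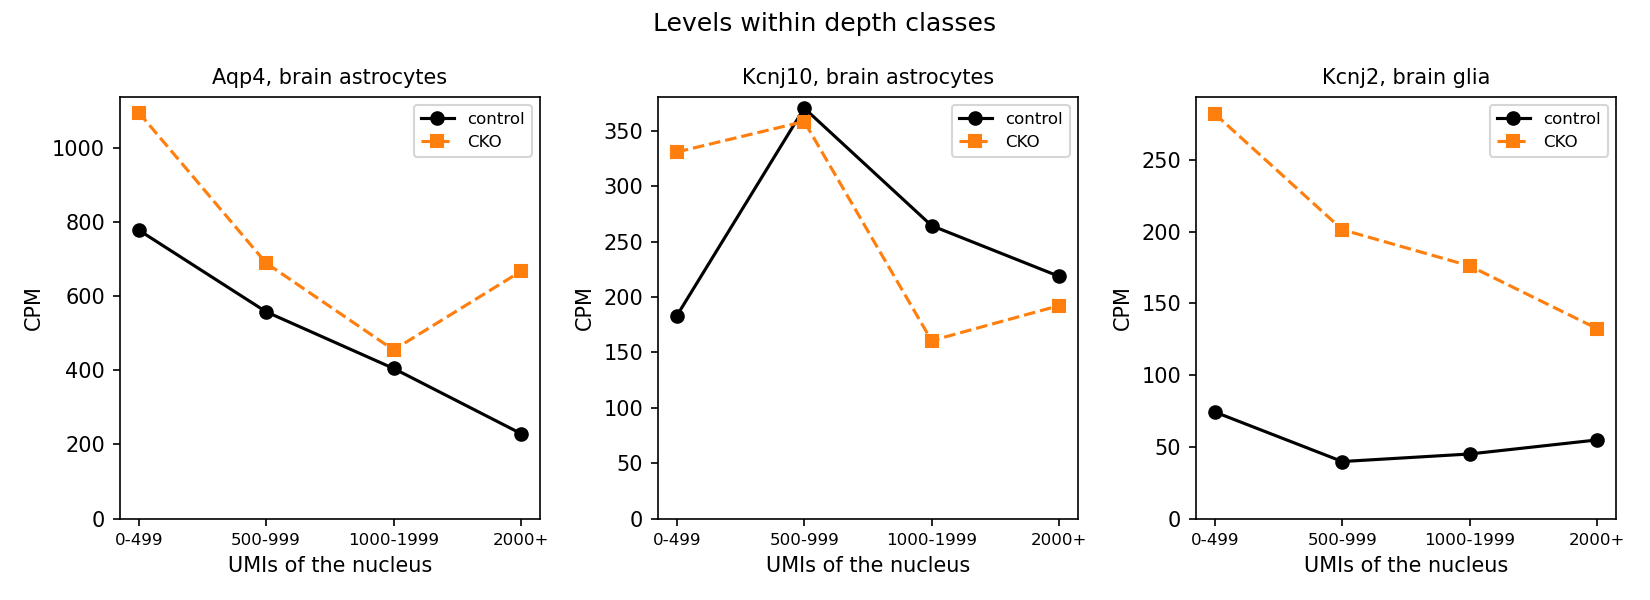
Level in CPM (y axis) within classes of UMIs per nucleus (x axis) for Aqp4 and Kcnj10 in brain astrocytes and Kcnj2 in nuclei labelled glia, control in black and CKO in orange. Aqp4 falls with depth in the control, from 779 to 229 CPM, and Kcnj2 is higher in the CKO in all 4 classes.

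CP_6 nuclei, the other main source of these genes, had Aqp4, Kcnj10 and Kcnj16 at similar levels in both libraries. Aqp4 was at 419 and 391 CPM (ratio 0.934, 0.844 to 1.03), Kcnj10 at 194 and 215 CPM (1.11, 0.963 to 1.28) and Kcnj16 at 140 and 142 CPM (1.02, 0.855 to 1.20). The choroid plexus list was lower there in the CKO, at 3125 and 1405 CPM. By control levels Aqp4 ran from CP_6 to astrocytes, whose intervals overlap only barely, and then to Glut_20, at 163 CPM. In the CKO the order turned, with astrocytes above CP_6. Kcnj10 ran from astrocytes to CP_6, Glut_20 and oligodendrocytes (85.7 and 89.2 CPM, ratio 1.04), and the last 2 of these did not differ beyond their counting intervals in the control. Kcnj16 ran from CP_6 to astrocytes and oligodendrocyte precursors, and the intervals of the latter pair overlapped in the control. Glut_20 nuclei had more of both in the CKO, with ratios of 1.91 (1.18 to 3.07) for Kcnj10 and 1.65 (1.14 to 2.38) for Aqp4, and they carried the oligodendrocyte list at 6790 and 5782 CPM. Other lists were higher there in the CKO, the ependymal list at 13.3 and 84.3 CPM (7 and 15 UMIs) and the pericyte list at 146 and 270 CPM, led by Rgs5. The immune list was also higher, at 182 and 382 CPM, and the part of these lists in both ratios was not tested. Kcnj16 in oligodendrocyte precursors was at 73.0 CPM in the control and 23.9 CPM in the CKO (0.328, 0.101 to 0.835; 38 and 5 UMIs), while Kcnj10 there was at 32.6 and 62.2 CPM (1.91, 0.852 to 4.17). The Kcnj10 ratio was 0.379 with nuclei of at least 1000 UMIs, so its direction turned, and 5.07 with equal weight per nucleus. The astrocyte list in these precursors was at 469 and 1173 CPM, led by Slc4a4. The choroid plexus list was lower in the CKO, at 254 and 62.2 CPM (132 and 13 UMIs). So were the endothelial list, at 76.8 and 9.58 CPM (40 and 2 UMIs), and the oligodendrocyte precursor list, at 3661 and 2911 CPM. The part of these lists in both ratios was not tested.

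Kcnj8 and Abcc9, the pair that makes the ATP-sensitive channel of mural cells, were highest per UMI in pericytes. Kcnj8 in pericytes was at 607 CPM in the control (477 to 762; 74 UMIs) and 109 CPM in the CKO (2.75 to 605; 1 UMI), a ratio of 0.179 (0.00447 to 1.03). Abcc9 was at 3324 CPM (3008 to 3664) and 3690.4 CPM (2556 to 5157), a ratio of 1.11 (0.758 to 1.58). The 22 CKO pericyte nuclei held 9213 UMIs, so the Kcnj8 interval spans most of the range. The pericyte list was lower in these CKO nuclei, and per UMI of that list the ratios were 2.63 (1.80 to 3.74) for Abcc9 and 0.424 (0.0106 to 2.44) for Kcnj8. The endothelial list was higher in them, at 1740 and 2822 CPM (212 and 26 UMIs), most of it Flt1 in the CKO, at 673 and 2496 CPM. In the CKO 3 of the 9 genes of this list were detected, and Cldn5, Pecam1, Erg, Tek, Slco1a4 and Mfsd2a were at 0. Per UMI of the endothelial list the ratios were 0.685 for Abcc9 and 0.110 for Kcnj8, so the direction for Abcc9 depends on the list. The immune list was at 32.8 and 543 CPM on 4 and 5 UMIs, led by Mrc1, and the part of these lists in the ratios was not tested. In nuclei labelled vSMCs Abcc9 was at 101.5 and 38.7 CPM (0.381, 0.179 to 0.720; 157 and 10 UMIs), and Kcnj8 at 23.3 and 27.1 CPM (1.16, 0.437 to 2.65). The intervals of both ratios overlap, Kcnj8 rests on 7 UMIs in the 103 CKO nuclei, and whether the genes differ there was not tested. With equal weight per nucleus the Abcc9 ratio was 0.198. The pericyte list was nearly level in these nuclei, while the fibroblast list was at 2434 and 3983 CPM, the choroid plexus list at 4512 and 2067 CPM and the endothelial list at 4939.6 and 5013 CPM, above the smooth muscle list in the CKO. In the control the order for both genes was pericytes, ECs and vSMCs, with intervals that did not overlap.

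Most UMIs of this pair were in nuclei labelled ECs. These held 79.2% of control and 97.9% of CKO UMIs of Kcnj8, and 78.8% and 97.3% of those of Abcc9. Kcnj8 was at 82.6 and 68.3 CPM in ECs (0.827, 0.727 to 0.942) and Abcc9 at 441 and 361 CPM (0.820, 0.775 to 0.867). Both were lower in the CKO by similar amounts, and so was the pericyte list in the same nuclei. Counted per UMI of that list the ratios were 0.964 (0.847 to 1.10) for Kcnj8 and 0.955 (0.903 to 1.01) for Abcc9. The endothelial list was also lower in the CKO, and per UMI of that list the direction turned, to 1.07 for Kcnj8 and 1.06 for Abcc9. Across the 4 depth classes, from shallow to deep, the plain ratios were 1.10, 1.84, 1.01 and 0.709 for Kcnj8 and 1.09, 1.06, 0.884 and 0.772 for Abcc9, so the direction turned with depth. Split by pericyte marker UMIs, a division chosen after seeing the data, 363 control EC nuclei with 0 such UMIs held 0 UMIs of Kcnj8 and 1 of Abcc9, and 138 such CKO nuclei held 0 and 5. The 188 control and 236 CKO nuclei with 1 to 2 such UMIs had higher CKO values, with Abcc9 at 63.0 CPM (28.8 to 119.7) and 216 CPM (155 to 294.5) and Kcnj8 at 28.0 and 59.5 CPM. The 1924 control and 2570 CKO nuclei of this label with at least 3 pericyte marker UMIs held 475 and 457 UMIs of Kcnj8 and 2547 and 2431 of Abcc9, or 87.4 and 69.4 CPM and 469 and 369 CPM. The nuclei with 0 were also shallower, with medians of 503 and 441.5 UMIs against 1868 and 1798.

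Kcnj2, in contrast, was higher in CKO ECs. It was at 94.1 CPM in the control (86.4 to 102) and 123 CPM in the CKO (115 to 132), a ratio of 1.31 (1.17 to 1.46). It was read in EC nuclei without pericyte marker UMIs as well, at 53.4 CPM (27.6 to 93.4) in the control and 165 CPM (87.7 to 282) in the CKO. The endothelial list in those nuclei was at 18965 and 9853 CPM, and its part in the Kcnj2 values was not tested. Per UMI of the pericyte list its ratio was 1.52 (1.37 to 1.70), and across the 4 depth classes it was 2.43, 1.63, 1.28 and 1.24, with intervals above 1 in 3 of them. Nuclei labelled vSMCs had Kcnj2 at 27.2 and 31.0 CPM (1.14, 0.462 to 2.46). By control levels Kcnj2 ran from ECs to glia, oligodendrocytes and vSMCs, the last 2 with overlapping intervals, and in the CKO glia came first.

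Among the 37 pairs with at least 20 UMIs, the largest plain ratio of a member was that of Kcnj2 in nuclei labelled glia. It was at 50.2 CPM in the control (40.2 to 61.9; 87 UMIs) and 172 CPM in the CKO (138 to 213; 86 UMIs), a ratio of 3.43 (2.52 to 4.68). The CKO was higher in every depth class, with ratios of 3.80, 5.06, 3.91 and 2.42 whose intervals lay above 1. With equal weight per nucleus Aqp4 reached higher ratios, 5.96 in vSMCs and 5.22 in CP_8. The endothelial list in nuclei labelled glia was lower in the CKO, at 882 and 553 CPM, and so was the pericyte list, at 849.5 and 643 CPM, while the fibroblast list was at 13601 and 13097 CPM. The oligodendrocyte list was higher there, at 169 and 369 CPM, and the oligodendrocyte precursor list lower, at 438 and 218 CPM. The part of these lists in the Kcnj2 ratio was not tested. In 3 other cell types Kcnj2 was lower in the CKO. Oligodendrocytes had 45 control and 2 CKO UMIs (29.0 and 2.75 CPM; 0.0946, 0.0111 to 0.362), GABA_9 neurons 41 and 1 (0.0451, 0.00112 to 0.266) and Glut_0 neurons 21 and 3 (0.200, 0.0383 to 0.671). With equal weight per nucleus the first 2 ratios were 0.0303 and 0.0295. The endothelial list in oligodendrocytes was at 51.6 CPM in the control (80 UMIs) and 0 in the CKO, and the pericyte list at 20.6 and 5.49 CPM. The fibroblast list was higher there in the CKO, at 7.74 and 41.2 CPM (12 and 30 UMIs). So was the choroid plexus list, at 34.2 and 154 CPM. In GABA_9 the endothelial list was at 19.6 and 5.37 CPM and the fibroblast list at 34.1 and 4.70 CPM, and the part of vessel cell RNA in these Kcnj2 counts was not tested. CKO oligodendrocytes were shallower, at a median of 954.5 UMIs against 2328, 29.6% of all genes were at least 2-fold lower in them, and in those with at least 2000 UMIs the ratio was 0.473 (0.0551 to 1.85). In GABA_9 all Kcnj2 UMIs came from nuclei of at least 2000 UMIs, where the ratio was 0.0585 (0.00145 to 0.345).

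Kcnj13 was mainly in CP_8 nuclei, with 78.2% of its control UMIs and 83.0% of its CKO UMIs there. It was at 224 CPM in the control (205 to 245) and 191 CPM in the CKO (161 to 226), a ratio of 0.853 (0.701 to 1.03). Nuclei labelled glia came next, at 38.1 and 18.0 CPM (0.473, 0.207 to 0.954; 66 and 9 UMIs), followed by CP_6 at 15.8 and 8.78 CPM (0.557, 0.271 to 1.06). With equal weight per nucleus the CP_6 ratio was 1.10, so its direction turned. The 3 intervals did not overlap in the control, while glia and CP_6 overlapped in the CKO. In glia the choroid plexus list was also lower in the CKO, at 1424 and 956 CPM, and Kcnj13 stood at 17.0% and 9.42% of its CP_8 level beside 3.27% and 2.26% for that list. CP_8 nuclei also had more Aqp4 (16.7 and 39.1 CPM; 2.34, 1.38 to 3.92) and Kcnj10 (2.33, 0.968 to 5.43; 15 and 11 UMIs) in the CKO, with the astrocyte list at 485 and 703 CPM. The ependymal list in CP_8 nuclei was at 450 and 626 CPM. Aqp4 in nuclei labelled vSMCs was at 22.6 and 54.2 CPM (2.39, 1.19 to 4.57), with the astrocyte list at 859.9 and 1072 CPM. With equal weight per nucleus the Aqp4 ratios were 5.22 in CP_8 and 5.96 in vSMCs, and the Kcnj10 ratio in CP_8 was 3.70 with nuclei of at least 1000 UMIs. The part of these lists in the ratios was not tested.

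**Figure D4:**
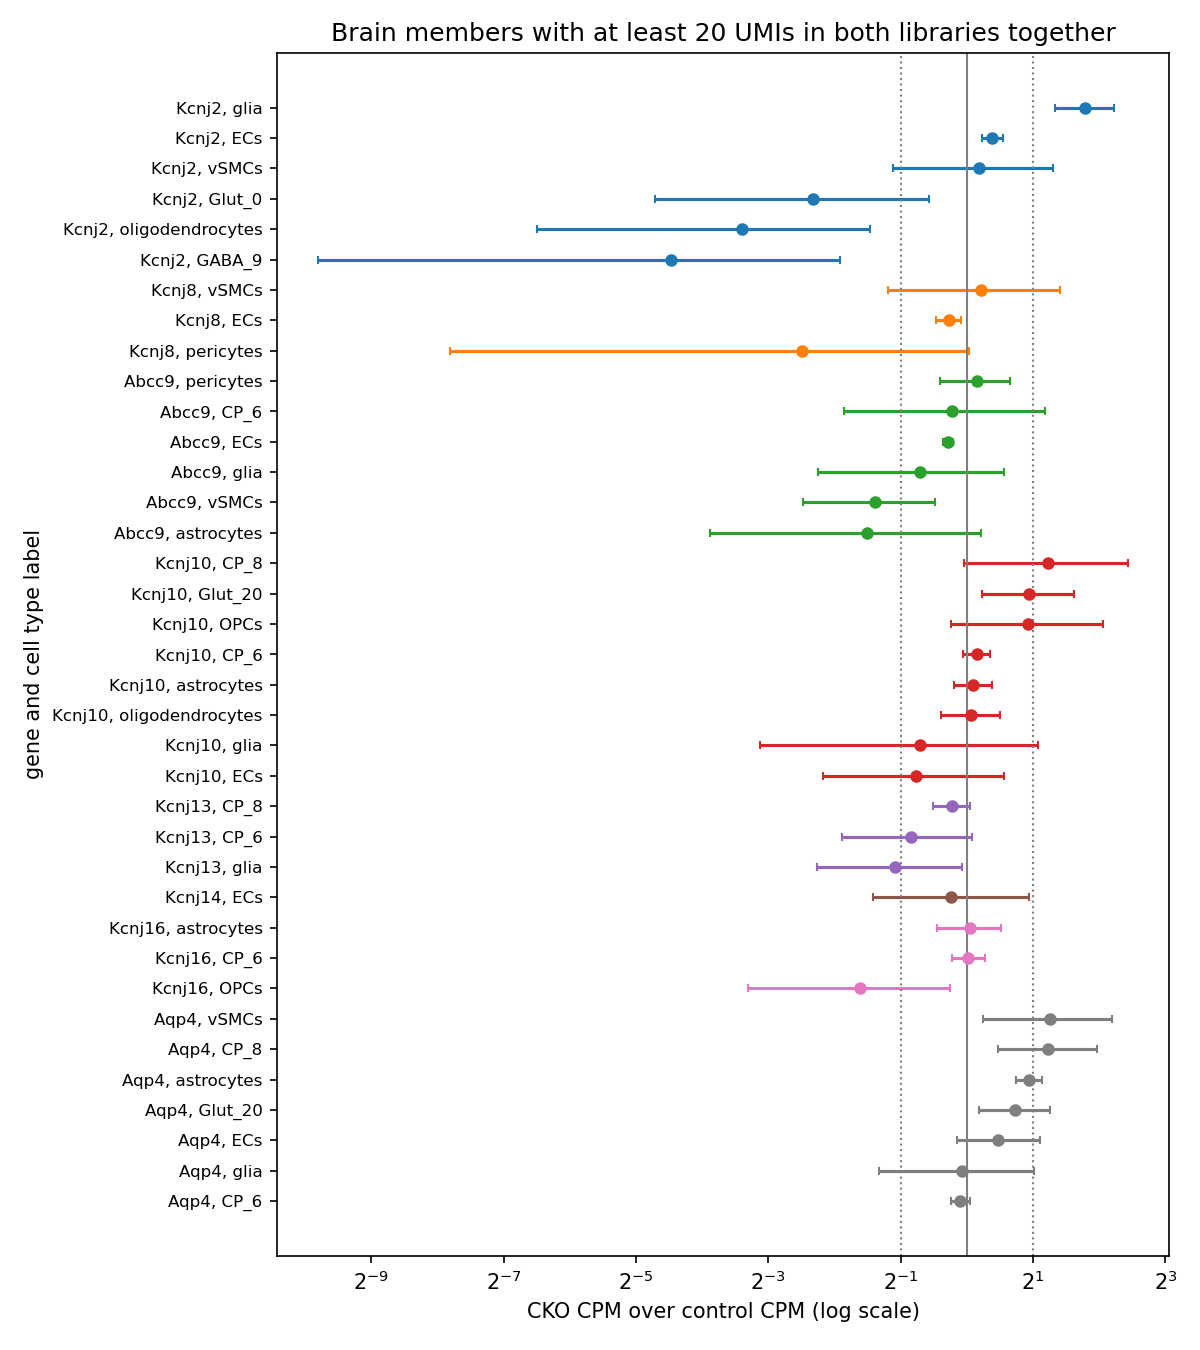
Ratio of CKO to control CPM (x axis, log scale) for the 37 pairs of member and cell type (y axis) with at least 20 UMIs, with exact 95% intervals for counting error; the solid line is 1 and the dotted lines mark 2-fold. Kcnj2 in glia lies highest, at 3.43, and Kcnj2 in GABA_9 lowest, at 0.0451.

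By cell type, the members past 2-fold can be set beside all genes with enough UMIs. In astrocytes 0 of 4 members were at least 2-fold higher and 1 lower (Abcc9, 23 and 3 UMIs; 0.352, 0.0676 to 1.16), where 8.81% of genes were higher and 15.3% lower. In nuclei labelled glia 1 of 5 was higher (Kcnj2) and 1 lower (Kcnj13), against 10.2% and 11.1% of genes. Other brain scalings or a higher minimum of UMIs per nucleus moved other ratios in glia to both sides of 1. Abcc9 ran from 0.229 to 1.63, Kcnj10 from 0.459 to 1.12 and Aqp4 from 0.897 to 1.81. In ECs 0 of 6 passed 2-fold in either direction, against 11.2% higher and 5.79% lower. The Aqp4 ratio in ECs ran from 1.26 to 2.56 under the same alternatives, so it passed 2-fold at the upper end. In pericytes 1 of 2 was lower (Kcnj8), against 13.7% higher and 40.5% lower, and in vSMCs 1 of 4 was higher (Aqp4) and 1 lower (Abcc9), against 4.7% and 8.82%. In oligodendrocytes 1 of 2 was lower (Kcnj2), against 3.77% higher and 29.6% lower, and in their precursors 1 of 2 was lower (Kcnj16), against 14.2% and 14.3%. Kcnj2 was the 1 member read in GABA_9 and in Glut_0 and was lower in both, against 3.66% higher and 5.78% lower in GABA_9 and 3.27% and 10.6% in Glut_0. In CP_8 nuclei 2 of 3 were higher (Aqp4 and Kcnj10), against 5.58% higher and 9.09% lower.

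The genes of the pathway lists that lay past 2-fold in the same brain nuclei follow by label. In astrocytes 10 genes of the dystrophin complex could be read, at a median ratio of 1.08, with Dag1, the dystroglycan gene, higher (15.4 and 45.5 CPM, ratio 2.95) and the sarcoglycan gene Sgcd lower (609 and 101 CPM, 0.166). The volume-regulated anion channel gene Lrrc8a was lower there (22.8 and 9.89 CPM, 0.435). In nuclei labelled glia 2 of 6 pump and cotransporter genes were higher, Slc12a2 (226 and 491 CPM, 2.17) and Atp1b2 (14.4 and 32.1 CPM, 2.22), and the two-pore channel gene Kcnk2 was lower (454 and 206 CPM, 0.454). Among 10 dystrophin complex genes 0 passed 2-fold in glia.

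In ECs 3 of 4 other inward rectifiers were lower in the CKO, Kcnj3 (ratio 0.459), Kcnj6 (0.298) and Kcnj12 (7.76 and 0.730 CPM, 0.0941), in contrast to Kcnj2. Kcnj3 and Kcnj6 encode subunits of G protein-gated channels. Lists of other cell types also differed in these nuclei. The GABAergic neuron list was at 127 and 96.0 CPM, the fibroblast list at 723 and 466 CPM and the choroid plexus list at 1124 and 480 CPM. The Müller glia list was higher in the CKO, at 1421 and 1983 CPM. The part of these lists in the 3 ratios was not tested. Of the dystrophin complex the sarcoglycan genes Sgce (29.0 and 91.1 CPM, 3.14) and Sgcb (2.32) were higher in ECs and the dystrobrevin gene Dtna lower (0.414), of 10 genes with a median of 1.04. Aqp9 was higher on 3 and 17 UMIs (4.80, 1.39 to 25.6), and Atp1b1 (0.434) and Kcnk10 (0.414) were lower. In pericytes Dmd was lower (3266 and 543 CPM, 0.166), on 398 and 5 UMIs. In vSMCs Kcnj3 (108 and 50.3 CPM), Dtnb (0.399) and Kcnk10 (0.363) were lower, and Kcnj12 had 22 control and 0 CKO UMIs.

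Genes whose levels across cell types were most like those of a member are given by Pearson's r of log2 CPM, as a description over cell types that share libraries. Over 21 brain labels these were Hepacam (0.97), S100b and Psat1 for Kcnj10, Gpr37l1 (0.92), Mro and Tlcd1 for Kcnj16, and Fads2 (0.94), Slc1a3 and Sdc4 for Aqp4. For the mural pair they were Chp2 (0.99), Hapln3 and Pla1a for Kcnj8 and Morrbid (0.97), Itga1 and Gjc1 for Abcc9. Ndrg1 (0.90), Jcad and Kif26a were most like Kcnj2, and Ecrg4 (0.95), Scara5 and Sema3b most like Kcnj13. Between members r was 0.94 for Kcnj8 and Abcc9, 0.88 for Kcnj10 and Aqp4, 0.84 for Kcnj10 and Kcnj16 and 0.84 for Kcnj16 and Aqp4. Over 11 retina labels Anxa1 (0.98), Apln and Nrarp were most like Kcnj10, Gpr37 (0.92), Crym and Adamts5 most like Aqp4, and r between Kcnj10 and Aqp4 was 0.85. Rasgrp1 (0.96), Gask1b and Cd47 were most like Kcnj2 in the retina, Elmod2 (0.97), Ssu72 and Sp3os most like Kcnj14, and Myzap (0.95), F8a and Ppp1r1b most like Abcc9. Kcnj8, Kcnj13 and Kcnj16 in the retina and Kcnj14 in the brain had fewer than 200 UMIs and were left out. When 10 in place of 1 was added to CPM, 13 of the 36 genes named were kept.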

How the data were processed

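The values are UMI counts per nucleus and gene, as deposited by the authors, from PIPseq libraries of whole retina and of brain vessel fragments. By the paper's methods, the authors counted reads with PIPseeker, and took out empty droplets and background RNA with CellBender and doublets with SOLO. By hand they removed further nuclei that may have been mixed. They also removed clusters with multiple nuclei from CKO retina libraries 4 and 5. Low counts outside a gene's main cell type are what such a correction left, and its effect on them was not tested. The authors' cell type labels and batches were used as given. The submitters' processing notes name mm10 and Seurat, and the paper names GRCm39. For each label and library UMIs were added up and expressed as CPM. Retina labels were fitted with edgeR 4.0.16 (R 4.3.3; TMM factors, quasi-likelihood test, kit as covariate, Benjamini-Hochberg over all genes tested, threshold 0.05) on libraries with at least 20 nuclei and 20000 UMIs of a label and genes with at least 50 UMIs. With 1 control library, its spread is taken to equal that of the CKO libraries, and p-values measure the spread between these samples. DESeq2 1.42.0 was the alternative. Brain ratios need at least 20 UMIs and have no test. Tables and intervals were made with Python 3.11.15, pandas 2.3.3, numpy 2.4.6 and scipy 1.17.1, and figures with matplotlib 3.10.9.

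Named are the 8 members, Tgfbr1, for each of 7 pathway lists in Müller glia the genes that passed or else the top by UMIs, list genes past 2-fold in 5 brain labels, and the 3 genes most like each member with at least 200 UMIs. The lists are other inward rectifiers, sulfonylurea receptors, other aquaporins, the dystrophin complex, sodium pump and cotransporters, two-pore channels and volume-related channels. The results of 2 listed genes are not reported here. Members and lists were chosen with earlier results of these data known. Alternatives were another covariate or tool, batch 1 alone, libraries left out, other minimums and other brain scalings.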

Additional observations from a re-analysis of the deposited data

How the results depend on the processing

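The number of genes called in Müller glia, 2 with the reported settings, was 1 without the kit, 1 with batch as covariate, 8 in batch 1 alone, 1 without CKO libraries 4 and 5, and 94 with DESeq2. Leaving out 1 CKO library at a time gave 1 to 7. Members were called in none of these. The log2 difference of Kcnj14 in Müller glia reversed to 0.078 without the kit and to 0.10 with batch, and that of Kcnj2 in amacrine cells to -0.16 in batch 1. Over all alternatives Kcnj10 in Müller glia lay between -0.34, with batch as covariate, and -0.12, without CKO library 5, and Aqp4 between -0.28, with batch, and -0.037, without the kit, against -0.19 and -0.20. With at least 5 nuclei of both types, 2 members passed between Müller glia and astrocytes, with or without the control, against 0 as reported. With at least 50 UMIs per gene, 3362 brain tests (3.11%) were 2-fold higher and 7294 (6.74%) lower, against 9147 (5.96%) and 16264 (10.6%) as reported. Of the 36 most alike genes 13 were shared when 10 was added to CPM. The causes of these changes were not tested. With brain nuclei of at least 1000 UMIs, 5 of 35 ratios changed direction, and with equal weight per nucleus 7 of 37. In these settings 12 and 15 pairs lay past 2-fold, against 12 as reported. Of the 12 reported, 9 and 11 lay past 2-fold there in the same direction. No paired analysis of CKO against control was possible, because each tissue had 1 control library and the sample titles mark no pairs. The retinal astrocyte alternatives and CKO pericytes of at least 1000 UMIs were not run, as too few nuclei remained. With 1 control retina library and 1 brain library per genotype, variation between control animals was not measured.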
